A study of Mus musculus with 6 samples.

Results

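The genes described here are 10 that encode the constant parts of the T cell receptor and its CD3 partners: Trac for the alpha chain, Trbc1 and Trbc2 for beta, Tcrg-C1, Tcrg-C2 and Tcrg-C4 for gamma, Trdc for delta, and Cd3d, Cd3e and Cd3g. They were taken by symbol, as 10 of the 52636 gene rows in the deposited count table, and all 10 passed the filter on low counts that 15197 genes passed. They were chosen with the difference between the cell populations already known, Tcrg-C4 having been seen to run opposite to Cd3e. Their differences are therefore given as descriptions, with no p-value for any of them. The 6 RNA-seq libraries came from innate lymphoid cells (ILCs) of the lung, 3 of KLRG1-negative and 3 of KLRG1-positive cells, sorted as lineage-negative (Lin-) and CD90-positive to a stated purity above 90%. The sample titles say KLRG1-positive, while the protocol names this sort KLRG1high. Every mouse was wild type on the C57BL/6 strain and carried the IL-4 4get reporter, which marks cells that transcribe Il4 with GFP. Every mouse also received 500 ng of recombinant IL-33 intraperitoneally for 4 days and was killed on day 5. Both groups thus share the reporter and the treatment, there was no untreated group, and the ages, the lineage panel and the number of mice per library are not given in the sources used here. Whether the 3 libraries per group stem from different animals is not stated either, and the p-values below cover the spread among these libraries, which could be technical.

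A T cell receptor is a pair of chains, alpha with beta or gamma with delta, each made of a variable part encoded by a rearranged V and J (and, for beta and delta, D) segment and a constant part encoded by one of the genes above. The pair reaches the cell surface only with CD3 delta, epsilon and gamma and the zeta chain encoded by Cd247, whose cytoplasmic motifs recruit kinases. Constant genes can also be transcribed without a complete rearrangement. ILCs are lymphocytes that carry no antigen receptor, and group 2 ILCs (ILC2) share transcription factors such as GATA3 with developing T cells. KLRG1 is a lectin-like inhibitory receptor found on activated ILC2 and on effector T and NK cells.

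How far the counts of these genes can be told apart depends on their sequences, since reads that map to several places were left out of the counts. Trbc1 and Trbc2 share 95.6% of their 518 aligned coding bases (GENCODE M21 transcripts), and 41.1% of the 50-base windows of Trbc1 occur unchanged in Trbc2. Their first 120 coding bases, at chr6:41538218-41538337 and chr6:41546730-41546849 of build GRCm38 on the plus strand, are identical and are shown as a stretch where reads cannot be assigned to either gene.
Trbc1 and Trbc2: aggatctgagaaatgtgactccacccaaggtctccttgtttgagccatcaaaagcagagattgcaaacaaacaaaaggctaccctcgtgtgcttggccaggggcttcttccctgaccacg
A 60-base stretch further on, coding bases 438 to 497, is shown as the one with most differences. It lies at chr6:41539273-41539332 in Trbc1 and chr6:41547816-41547875 in Trbc2, and capitals mark the 10 bases that differ.
Trbc1: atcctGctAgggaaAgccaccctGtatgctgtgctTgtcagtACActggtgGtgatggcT
Trbc2: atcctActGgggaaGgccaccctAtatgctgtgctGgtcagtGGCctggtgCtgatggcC
The gamma genes are shown because Tcrg-C4, the gene with the opposite direction, is also the most divergent of them. Capitals mark bases that differ from Tcrg-C1 in the first 120 coding bases, at chr13:19214103-19214222 (plus) for Tcrg-C1, chr13:19307432-19307551 (minus) for Tcrg-C2 and chr13:19344558-19344677 (plus) for Tcrg-C4.
Tcrg-C1: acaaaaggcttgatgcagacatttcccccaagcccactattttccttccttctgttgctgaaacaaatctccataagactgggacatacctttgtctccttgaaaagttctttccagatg
Tcrg-C2: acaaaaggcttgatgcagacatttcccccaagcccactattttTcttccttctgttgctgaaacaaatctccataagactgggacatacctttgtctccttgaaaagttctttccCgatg
Tcrg-C4: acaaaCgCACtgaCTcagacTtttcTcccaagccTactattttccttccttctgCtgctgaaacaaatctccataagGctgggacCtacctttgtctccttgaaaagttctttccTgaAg
Tcrg-C2 differed from Tcrg-C1 at 2 of these 120 bases and Tcrg-C4 at 14. Over the aligned coding sequence Tcrg-C1 was 97.4% identical to Tcrg-C2 and 77.3% identical to Tcrg-C4. Of the 50-base windows of Tcrg-C1, 34.2% were shared with Tcrg-C2 or Tcrg-C3, while Tcrg-C4, Trac and Cd3g shared 0% with any other transcript. The separate values of Tcrg-C1, Tcrg-C2, Trbc1 and Trbc2 are uncertain for this reason, and those of Tcrg-C4 and Trac do not have this limit.

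Depth was 17323004 to 23946073 assigned reads per library. Values are CPM, read counts scaled to a common library total with TMM factors. The sorts were checked against marker genes. Klrg1 measured 13.1, 193 and 73.2 CPM in KLRG1-negative libraries 1, 2 and 3 and 1485, 1786 and 1327 CPM in KLRG1-positive libraries 1, 2 and 3, which do not overlap. The 10 ILC2 markers, Klrg1 and Gata3 among them, summed to 1412 to 3490 CPM in the KLRG1-negative libraries and 6999 to 8916 CPM in the KLRG1-positive ones. Markers of other lymphocytes were present in both sorts despite the lineage gate: 10 T cell genes outside the receptor and CD3 genes, all of which also stand in the pathway lists below, summed to 1025 to 3981 CPM against 186.8 to 408.7 CPM, 10 B cell genes to 7387 to 28980 CPM against 2462 to 8521 CPM, and 8 NK cell and ILC1 genes to 520.7 to 1727 CPM against 123.5 to 476.6 CPM. The 6 fibroblast genes summed to 3849 to 10770 CPM against 4.66 to 26.8 CPM. The 6 epithelial and endothelial genes (123 to 724.7 against 107.3 to 538.6 CPM) and 7 myeloid and mast cell genes (50.6 to 325.3 against 70.01 to 348.9 CPM) overlapped between the groups, as did the B cell sums. Thy1, which encodes the sort marker CD90, measured 53.1, 44.8 and 25.9 CPM against 34.9, 16.3 and 24.4 CPM. None of these lists had a gene with 0 counts in all 3 KLRG1-positive libraries, but some were at the floor there. The fibroblast gene Lum had 0, 0 and 1 counts and the T cell gene Cd4 had 0, 1 and 0. KLRG1-negative library 1 stood apart, with the highest T cell and NK cell sums and the lowest ILC2 sum of its group.

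Trac, the only constant gene of the alpha chain (ENSMUSG00000076928, chr14:54220521-54224206, plus strand), was far lower in KLRG1-positive cells. It measured 977, 347 and 222 CPM in libraries 1, 2 and 3 of the KLRG1-negative cells and 59.3, 20.7 and 20.3 CPM in KLRG1-positive libraries 1, 2 and 3. Every KLRG1-negative library lay above every KLRG1-positive one, and library 1 was the highest of each group. The means were 515 ± 405 CPM and 33.4 ± 22.4 CPM (SD, n = 3 each), 15.4-fold lower in KLRG1-positive cells, and the fitted log2 fold change was -3.95 ± 0.77 (SE). With 1 library left out the fold ran from 8.498 (without KLRG1-negative library 1) to 25.1 (without KLRG1-positive library 1). In bulk samples, fewer cells of a type and less RNA per cell cannot be told apart. The T cell, NK cell and fibroblast marker sums given above moved in the same direction without overlap, and the B cell sum did so with overlap. By gene, 6 of 10 T cell, 9 of 10 B cell, 3 of 8 NK cell and ILC1 and 6 of 6 fibroblast markers lay lower without overlap. In each of these lists 0 lay higher without overlap (15.2% and 9.46% of all tested genes). The part of these cells in this difference was not tested.

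The beta constant genes did not follow Trac. Trbc1 (chr6:41538218-41539881, plus) measured 508, 449 and 259 CPM in the KLRG1-negative and 281, 450 and 328 CPM in the KLRG1-positive libraries. The groups overlapped, with a log2 fold change of -0.20 ± 0.31, and with both libraries numbered 1 left out it was 0.14. Trbc2 (chr6:41546730-41548352, plus), which lies 6849 bases beyond the end of Trbc1, measured 1338, 981 and 539 CPM against 599, 755 and 650 CPM, a log2 fold change of -0.51 ± 0.34. KLRG1-negative library 3 lay below every KLRG1-positive library for Trbc2, and libraries 1 and 2 lay above. Trbc2 reads outnumbered Trbc1 reads 1.68 to 2.63 times in every library. Summed, the pair gave 1846, 1430 and 799 CPM against 880, 1204 and 978 CPM, so that beta reads per Trac read were 1.89, 4.12 and 3.61 in the KLRG1-negative libraries and 14.8, 58.3 and 48.1 in the KLRG1-positive ones. These ratios did not overlap between the groups.

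Trdc, the delta constant gene (chr14:54142851-54148868, plus), lies 71653 bases before Trac in the same locus and was low. Its values were 126, 27.7 and 16.9 CPM in the KLRG1-negative and 8.56, 4.38 and 3.29 CPM in the KLRG1-positive libraries. They did not overlap, and KLRG1-negative library 1 lay far above the other libraries of its group. The log2 fold change of -3.40 ± 0.89 became -2.04 without that library. Its row overlaps Gm43434 and Trdv5, both on the other strand, which reached at most 3.89 CPM, and the counts are not stranded.

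The 3 gamma constant genes each behaved differently. Tcrg-C4 (ENSMUSG00000076757, chr13:19344558-19352756, plus) measured 67.2, 108 and 167 CPM in KLRG1-negative cells (libraries 1, 2 and 3) against 446, 306 and 377 CPM in KLRG1-positive cells. All 3 KLRG1-positive libraries lay above all 3 KLRG1-negative libraries, and KLRG1-negative library 1, the highest for Trac and every CD3 gene, was the lowest here. Means were 114 ± 49.9 CPM and 376 ± 69.7 CPM (SD, n = 3 each), 3.31-fold higher in KLRG1-positive cells, with a log2 fold change of 1.73 ± 0.36 that ranged from 1.47 to 2.12 with 1 library left out. As for Trac, cell numbers and RNA per cell cannot be told apart in these bulk samples. The ILC2 marker sum was higher in KLRG1-positive cells too, 6999 to 8916 against 1412 to 3490 CPM, and its part was not tested. Tcrg-C2 (chr13:19304649-19307551, minus) went the way of Trac, with 84.5, 17.9 and 16.1 CPM against 9.63, 2.83 and 4.395 CPM and a log2 fold change of -2.81 ± 0.86. Its groups did not overlap, and without KLRG1-negative library 1 the value was -1.59. Tcrg-C1 (chr13:19214103-19217024, plus) measured 83.3, 16.8 and 21.1 CPM against 29.7, 35.7 and 78.7 CPM. Its groups overlapped, and its log2 fold change of 0.25 ± 0.72 ran from -0.21 to 1.36 with 1 library left out, positive in 9 of 13 other settings. Tcrg-C3, a further gamma constant gene outside the set of 10, stayed at or below 3.06 CPM in every library. Summed with Tcrg-C1 and Tcrg-C3, its near-identical copies, Tcrg-C2 gave a log2 fold change of -0.57.

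The CD3 genes, on chromosome 9, split as well. Cd3d (CD3 delta, chr9:44981786-44987339, plus) measured 515, 217 and 91.5 CPM in the KLRG1-negative and 19.4, 4.43 and 5.15 CPM in the KLRG1-positive libraries. Cd3e (CD3 epsilon, ENSMUSG00000032093, chr9:44998740-45009627, minus) measured 799, 239 and 149 CPM against 39.0, 8.81 and 12.5 CPM. For both, every KLRG1-negative library was above every KLRG1-positive one, and library 1 was the highest in each group. Cd3d was 28.4-fold lower and Cd3e 19.7-fold lower in KLRG1-positive cells, with log2 fold changes of -4.83 ± 0.94 and -4.30 ± 0.92. Without KLRG1-negative library 1 the folds were 16.0 and 9.66, and without KLRG1-positive library 1 they were 57.3 and 37.2. Cd3e overlaps Gm48719 on the other strand and Gm48720 on its own, which reached at most 7.29 CPM. Cd3g (CD3 gamma, chr9:44969572-44980431, minus) differed far less: 740, 368 and 261 CPM against 148, 313 and 249 CPM, a log2 fold change of -0.95 ± 0.46. Its groups overlapped, since KLRG1-positive library 2 lay above KLRG1-negative library 3, although Cd3g was lower in the KLRG1-positive library of all 3 same-numbered pairs. With both libraries numbered 1 left out the value was -0.16. Cd3g reads per Cd3e read were 0.926, 1.54 and 1.76 in the KLRG1-negative libraries and 3.80, 35.6 and 19.9 in the KLRG1-positive ones, without overlap, whereas Cd3e reads per Cd3d read stayed between 1.10 and 2.42 in all 6.

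**Figure D1:**
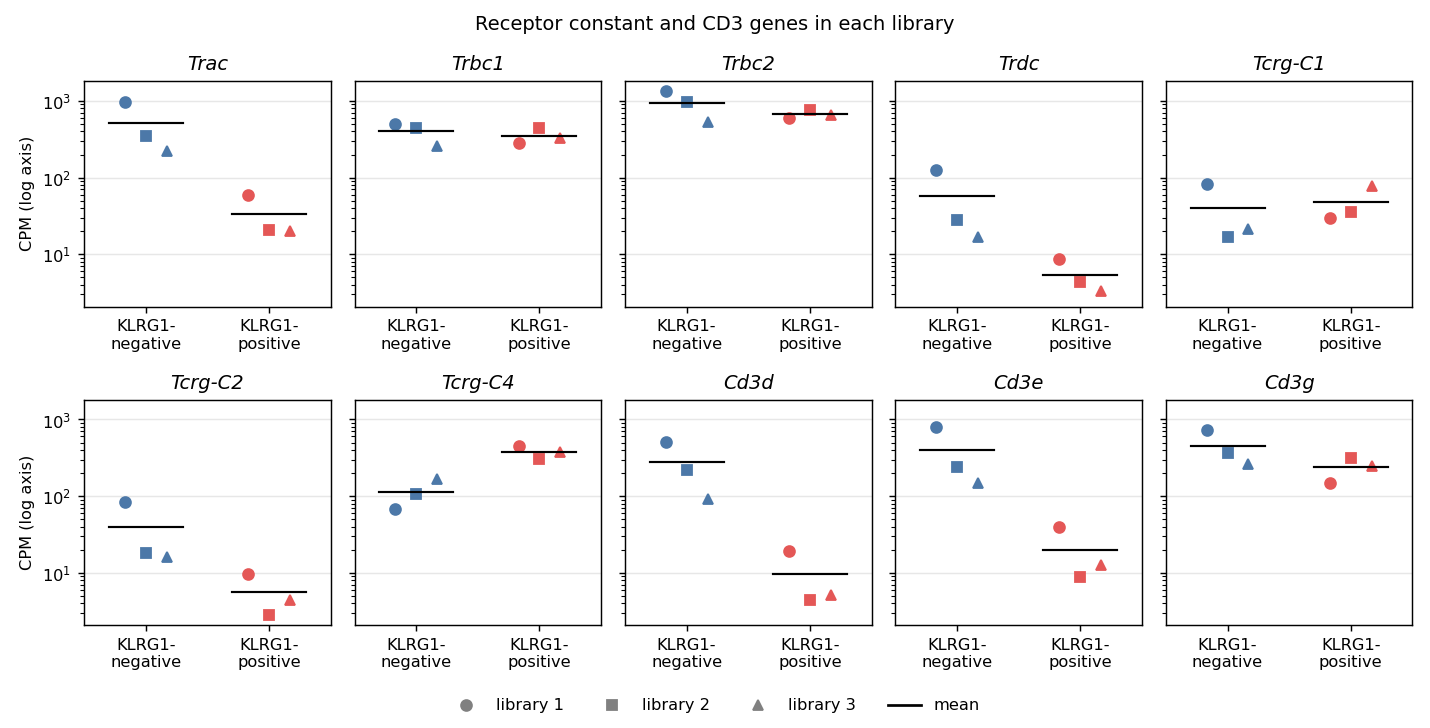
CPM on a log axis for each of the 10 genes, 1 point per library (circle, square and triangle for libraries 1, 2 and 3), with the mean of 3 as a black line. Trac, Trdc, Tcrg-C2, Cd3d and Cd3e separate downwards in KLRG1-positive cells, Tcrg-C4 separates upwards, and Trbc1, Trbc2, Tcrg-C1 and Cd3g overlap.

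The start sites of Cd3g and Cd3d lie 1355 bases apart and point away from each other, yet the genes differed in how they varied, so their promoters are shown with that of Cd3e. The windows are the 250 bases before the RefSeq start, which for Cd3e lies just inside the deposited row (GRCm38.p6, 3 of the 10 genes matched), at chr9:44980432-44980681 (minus) for Cd3g, chr9:44981536-44981785 (plus) for Cd3d and chr9:45009612-45009861 (minus) for Cd3e. Capitals mark matches, on either strand, to the E-box CANNTG, the RUNX motif TGTGGT, the TCF/LEF motif CTTTGA, the GATA factor motif AGATAA and the ETS motif AGGAAG.
Cd3g: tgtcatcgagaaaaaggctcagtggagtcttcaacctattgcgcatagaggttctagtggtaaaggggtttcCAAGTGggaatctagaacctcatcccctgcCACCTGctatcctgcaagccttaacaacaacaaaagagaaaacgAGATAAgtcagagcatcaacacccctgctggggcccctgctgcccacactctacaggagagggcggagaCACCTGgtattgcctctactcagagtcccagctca
Cd3d: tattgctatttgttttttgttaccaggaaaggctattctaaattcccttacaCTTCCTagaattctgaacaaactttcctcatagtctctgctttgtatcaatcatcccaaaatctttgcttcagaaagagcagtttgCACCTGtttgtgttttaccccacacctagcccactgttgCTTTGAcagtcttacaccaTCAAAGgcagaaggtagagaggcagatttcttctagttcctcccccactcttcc
Cd3e: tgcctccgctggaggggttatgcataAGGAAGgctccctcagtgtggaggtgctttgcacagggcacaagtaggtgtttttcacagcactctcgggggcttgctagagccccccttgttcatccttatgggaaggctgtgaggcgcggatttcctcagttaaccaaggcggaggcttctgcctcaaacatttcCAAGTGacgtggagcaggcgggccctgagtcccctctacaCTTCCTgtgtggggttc
Cd3g held 3 E-box matches, 178, 148 and 35 bases before the start, and 1 GATA match. Cd3d held 1 E-box, 2 TCF/LEF matches and 1 ETS match, and Cd3e held 1 E-box and 2 ETS matches. None of the 3 windows held the RUNX letters. Over 32851 promoters of this length, 66.2% held an E-box, 29.5% the ETS, 14.0% the RUNX, 13.8% the TCF/LEF and 9.99% the GATA letters. These are matches of letters and not sites of binding.

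Of the 10 genes, 5 lay without overlap lower in KLRG1-positive cells and 1 without overlap higher, which among all tested genes was so for 15.2% and 9.46%. The edgeR quasi-likelihood test with Benjamini-Hochberg adjustment over all genes called 0 of the 10 in either direction, against 1.21% of all genes lower and 0.125% higher. Klrg1, the gene of the sort, was not called by this test either (adjusted p = 0.0939), so an absent call does not show equal levels. By an unadjusted p under 0.05 the numbers among the 10 genes were 5 lower and 1 higher (11.5% and 4.19% of all genes), and DESeq2 called 5 lower and 1 higher (8.79% and 1.91%). With the replicate number as a block, 3 were called lower, Trac, Cd3d and Cd3e, and 0 higher (0.349% and 0% of all genes). These calls and counts stand beside the background only: because the genes were chosen on this contrast, nothing is read from these counts. Their median log2 fold change was -1.88, against -0.05 over all tested genes.

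**Figure D2:**
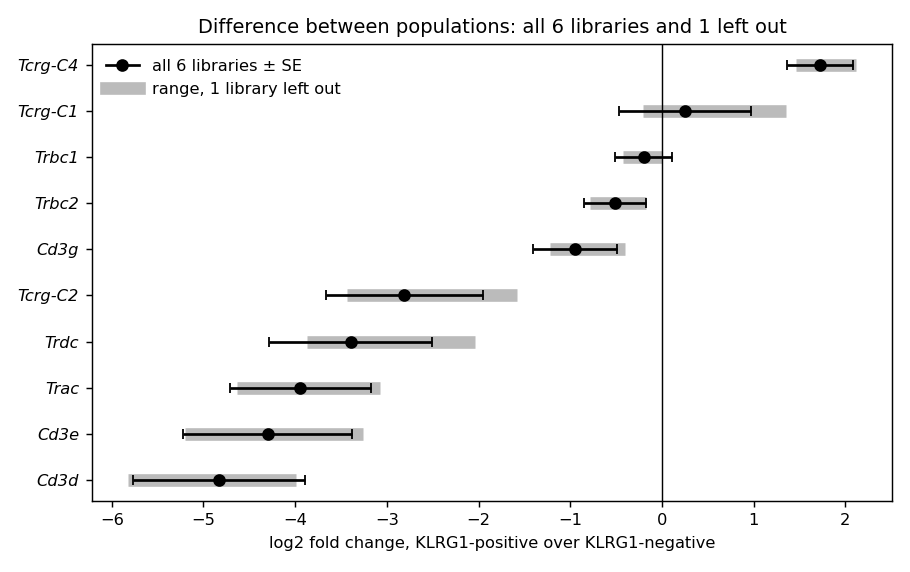
Log2 fold change of each gene, KLRG1-positive over KLRG1-negative, with its SE (black), and the range when each of the 6 libraries is left out in turn (grey). Tcrg-C4 is positive throughout, 1.47 to 2.12, and Cd3d is the most negative, -5.82 to -3.99.

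Over the 6 libraries the genes fell into sets by how their log2 CPM ran together, given as Pearson's r without a test because the 2 groups and the shared library totals shape it. Trac, Cd3d and Cd3e ran together at 0.996 to 0.998, and Trdc and Tcrg-C2 followed Cd3e at 0.968 and 0.969. Trbc1 and Trbc2 ran with each other at 0.908 and with Cd3e at 0.295 and 0.622. Cd3g stood nearer to Trbc1 and Trbc2, at 0.809 and 0.889, than to Cd3e, at 0.646. Tcrg-C4 ran against Cd3e at -0.906, and Tcrg-C1 ran with neither, at -0.08 with Cd3e and -0.004 with Tcrg-C4. Within the KLRG1-negative group, library 1 had the most Trac and Cd3e and the least Tcrg-C4. Within the KLRG1-positive group, library 1 had the most of all 3.

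Levels can be compared between genes only per length. Per kb of the deposited gene length, the order of mean levels in KLRG1-negative cells was Trbc2 at 1377, Trac at 551, Trbc1 at 541, Cd3d at 151, Cd3g at 140, Tcrg-C4 at 116, Cd3e at 96.9, Tcrg-C1 at 43.7, Tcrg-C2 at 43.2 and Trdc at 14.7 CPM per kb. Only Trbc1 and Cd3d were neighbours without overlapping ranges. In KLRG1-positive cells it was Trbc2 at 965, Trbc1 at 471, Tcrg-C4 at 382, Cd3g at 72.4, Tcrg-C1 at 52.0, Trac at 35.8, Tcrg-C2 at 6.15, Cd3d at 5.33, Cd3e at 4.92 and Trdc at 1.40 CPM per kb. There Trbc2 was separated from Trbc1, Tcrg-C4 from Cd3g, and Trac from Tcrg-C2, and the other neighbours overlapped. The deposited lengths of Cd3e and Cd3g include exons outside the coding transcript: with the longest coding transcript instead, Cd3g reached 446 and 231 CPM per kb, Cd3e 271 and 13.7, and Cd3d 170 and 5.98 in KLRG1-negative and KLRG1-positive cells.

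As shares of all constant gene level per kb, beta chain genes made up 72.4 ± 6.58% of KLRG1-negative and 74.7 ± 6.55% of KLRG1-positive libraries (SD, n = 3 each). Alpha held 18.7 ± 6.76% and 1.92 ± 1.39%, gamma 8.48 ± 4.17% and 23.3 ± 5.49%, and delta 0.463 ± 0.316% and 0.0744 ± 0.0423%. Shares of alpha, gamma and delta did not overlap between the groups, and those of beta did. Within gamma, Tcrg-C4 held 27.2, 74.3 and 80.7% of the level in KLRG1-negative libraries 1, 2 and 3 and 91.4, 88.2 and 81.0% in the KLRG1-positive ones, so KLRG1-negative library 1 differed from the other 5.

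**Figure D3:**
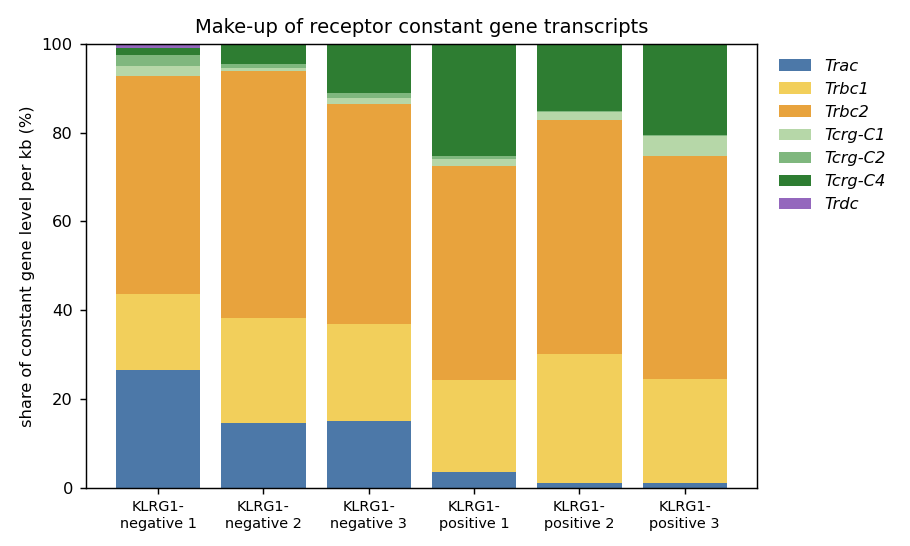
Stacked shares of constant gene level per kb in each library, in percent, by gene. Trac holds 14.6 to 26.5% in KLRG1-negative and 1.07 to 3.52% in KLRG1-positive libraries, Tcrg-C4 holds 1.73 to 10.7% and 15.0 to 25.1%, and the beta shares overlap.

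The variable and joining segments of the same loci show how far the constant gene reads came with segment reads. Of 214 segment rows, 103 passed the filter. Of these, 52 had under 10 counts in every KLRG1-positive library and 0 had under 10 in every KLRG1-negative one, so these rows passed through the KLRG1-negative group and the filter set their direction. The edgeR test called 1 lower and 0 higher, where 1.21% and 0.125% of all genes were called. An unadjusted p under 0.05 was reached by 71 and 4 (11.5% and 4.19% of all genes). DESeq2, which tested 172 of the rows, called 87 lower and 2 higher (8.79% and 1.91% of all genes), and 64 and 2 of those were among the 103. The gene called was Trbv15 (beta variable), at 21.2, 21.7 and 12.2 CPM against 0.788, 0.214 and 0.133 CPM, log2 fold change -5.60, edgeR adjusted p = 0.0449. With the replicate block its adjusted p was 0.068 and Trbv12-2 was called instead, at 0.0494. The counts in KLRG1-positive libraries 1, 2 and 3 were 14, 4 and 3 for Trbv15 and 45, 10 and 8 for Trbv12-2. Both thus also passed the filter through the KLRG1-negative group, and their direction is not read as a result. Without any 1 library other than KLRG1-positive library 1, 0 segments were called.

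Beta variable segments summed to 625, 287 and 137 CPM in KLRG1-negative and 31.5, 5.02 and 4.44 CPM in KLRG1-positive libraries, 25.6-fold lower, while the beta constant sum overlapped. Without KLRG1-positive library 1 the fold was 73.9, and without KLRG1-negative library 1 it was 15.5. Reads of beta V per beta constant read were 0.338, 0.2003 and 0.172 against 0.0358, 0.00417 and 0.00454. Alpha variable segments summed to 389, 133 and 92.4 CPM against 21.7, 3.47 and 7.10 CPM, 19.0-fold lower (38.7 and 10.5 without the same libraries). Alpha V per Trac read was 0.398, 0.383 and 0.417 against 0.366, 0.168 and 0.349. These ratios did not overlap but came close, at 0.383 against 0.366. The lowest, in KLRG1-positive library 2, rested on 65 V and 387 Trac reads. The alpha V rows included Trav12n-3, the one with most reads, at 17.9, 7.77 and 2.11 CPM against 1.013, 0.0534 and 0 CPM.

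The joining segments of beta differed among themselves. The 7 Trbj1 rows, which lie before Trbc1, summed to 65.3, 133 and 73.3 CPM against 107, 193 and 134 CPM. The groups overlapped, and the KLRG1-positive library was the higher one in all 3 same-numbered pairs. Trbj1 per Trbc1 read was 0.129, 0.296 and 0.283 against 0.381, 0.429 and 0.408, without overlap. Trbj1-1 of that cluster measured 14.2, 53.0 and 29.3 CPM against 45.7, 88.0 and 65.2 CPM. Trbj2-1 measured 16.0, 15.3 and 12.1 CPM against 26.2, 25.9 and 24.1 CPM, without overlap (edgeR adjusted p = 0.213). The other 5 Trbj2 rows had negative log2 fold changes, and of these Trbj2-3 (-1.41, adjusted p = 0.34) and Trbj2-5 (-1.99, adjusted p = 0.273) lay lower in KLRG1-positive cells without overlap. None of the 13 beta joining rows passed the edgeR threshold (1.21% of all genes lower and 0.125% higher). An unadjusted p under 0.05 was reached by 1 higher and 1 lower (4.19% and 11.5% of all genes). DESeq2 called Trbj2-1 higher (1.91% of all genes).

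At the gamma locus, Trgj4, the joining segment 2346 bases before Tcrg-C4, measured 2.95, 5.32 and 8.99 CPM against 23.0, 15.2 and 19.0 CPM. Its groups did not overlap, and its log2 fold change of 1.73 had an edgeR adjusted p of 0.159, while DESeq2 called Trgj4 higher. The variable gene before it, Tcrg-V1, stayed between 0.867 and 7.45 CPM in all 6 libraries. Trgv2, the gamma variable row with most reads, measured 36.7, 11.8 and 10.1 CPM against 5.46, 5.98 and 6.53 CPM. At the delta locus, Trdv4, which lies 67336 bases before Trdc, measured 20.6, 73.7 and 55.3 CPM against 88.3, 171 and 107 CPM, opposite in direction to Trdc. Of the other delta variable rows, all low, Trdv1 had 94, 3 and 8 counts against 0, 0 and 0, Trdv5 had 70, 5 and 17 against 1, 0 and 0, and Trdv2-2, whose groups overlapped, gave a log2 fold change of -0.41. Trdv4 per Trdc read was 0.164, 2.66 and 3.27 against 10.3, 39.0 and 32.5. The adjusted p of Trdv4 was 0.293. A read that crosses the splice from segment to constant gene overlaps several gene rows and was left out as ambiguous, so these ratios hold for reads within single rows only.

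**Figure D4:**
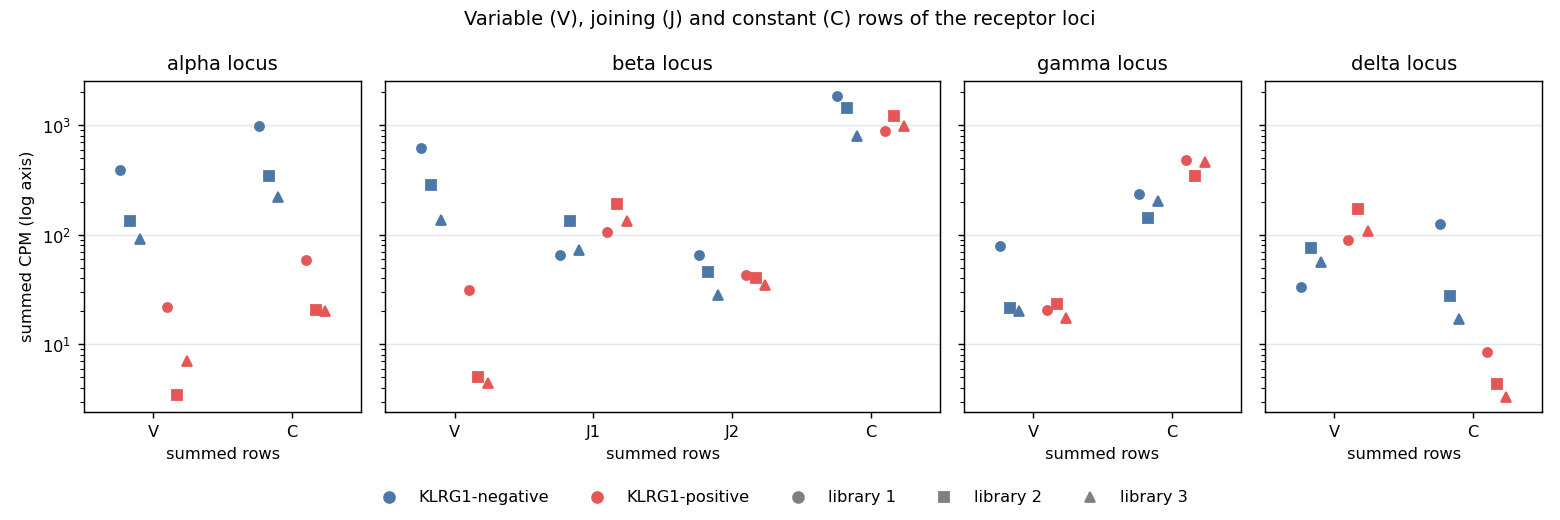
Summed CPM on a log axis of variable (V), joining (J) and constant (C) rows at each receptor locus, 1 point per library. At beta, V separates between the groups (137 to 625 against 4.44 to 31.5 CPM) while J1, J2 and C overlap. At delta the V sum runs opposite to C. Most of that sum is Trdv4, least so in KLRG1-negative library 1 (20.6 of 33.7 CPM).

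Other genes of the receptor pathway, in 7 lists by role, numbered 77, of which 73 passed the filter. Log2 fold changes were negative for 57 and positive for 16, with a median of -0.89. The edgeR test called 4 lower and 0 higher, where 1.21% and 0.125% of all genes were called, and the 4 were Cd2, Blk, Cd28 and Sh2d1a. An unadjusted p under 0.05 was reached by 30 and 5 (11.5% and 4.19% of all genes), and DESeq2 called 20 and 3 (8.79% and 1.91%). Cd2, an adhesion receptor of T and NK cells that mouse B cells also carry, measured 474, 324 and 390 CPM against 66.6, 62.9 and 59.97 CPM, a log2 fold change of -2.65 ± 0.20 and adjusted p = 0.013. Blk, a Src kinase of B cells and some gamma-delta T cells, fell by 4.36 on the log2 scale, adjusted p = 0.0365, from 56.0 to 124 CPM to 2.31 to 6.66 CPM. Cd28, the costimulatory receptor, was at 93.6 to 297 CPM against 13.0 to 23.3 CPM, log2 fold change -3.57, adjusted p = 0.043. Sh2d1a, the adaptor SAP, gave -2.71, adjusted p = 0.0499. With the replicate block the 4 genes called were Blk, Cd2, Il23r and Themis, and Cd28 and Sh2d1a had adjusted p of 0.0526 and 0.0738. Il23r had 756, 62 and 96 counts in the KLRG1-negative and 1, 0 and 0 in the KLRG1-positive libraries. Il23r and Dntt are the 2 tested pathway genes with under 10 counts in every KLRG1-positive library. Il23r thus passed the filter through the KLRG1-negative group, and its direction is not read as a result. With 1 library left out, the count lower was 1 without KLRG1-negative library 1, 0 without KLRG1-negative library 2 or 3 or KLRG1-positive library 2 or 3, and 6 without KLRG1-positive library 1. Of Cd2, Blk, Cd28 and Sh2d1a, only Cd2 was called in these settings. Without KLRG1-positive library 1, Cd28 and Sh2d1a had edgeR adjusted p of 0.0576 and 0.0961. B cell markers, to which Blk also belongs as a B cell kinase, were higher in KLRG1-negative cells, and their part was not tested.

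Among the genes that work directly with the receptor, Cd247 measured 287, 145 and 76.8 CPM against 38.2, 27.6 and 34.2 CPM, log2 fold change -2.35, edgeR adjusted p = 0.0787. Lck, the kinase that starts receptor signalling, measured 1987, 1029 and 581 CPM against 308, 199 and 223 CPM, -2.30, adjusted p = 0.0768. Both sets of libraries were apart, but neither gene passed the edgeR threshold. DESeq2 called both lower, with adjusted p of 3.95e-04 for Cd247 and 3.63e-04 for Lck. Zap70, the kinase that binds phosphorylated CD3, was at 190, 195 and 102 CPM against 153, 195 and 195 CPM, with no separation. Lat, the adaptor it phosphorylates, gave -0.92, adjusted p = 0.342. Trat1, an adaptor tied to the receptor complex, measured 28.9, 35.6 and 15.4 CPM against 18.4, 11.8 and 13.0 CPM, groups that overlapped. By list, edgeR called 1 of 20 proximal signalling genes and 2 of 9 co-receptor and costimulatory genes lower. It also called 1 of 11 gamma-delta T cell genes lower, where 1.21% of all genes were called lower and 0.125% higher. It called 0 of 3 other receptor complex genes, 0 of 5 recombination genes and 0 of 9 cytotoxic and NK receptor genes in either direction. Of these last 3 lists, 1, 2 and 4 genes were lower and 0 higher with an unadjusted p under 0.05 (11.5% and 4.19% of all genes). DESeq2 called 1, 1 and 3 lower (8.79% of all genes). The recombination gene called by DESeq2 was Dntt, also 1 of the 2 with an unadjusted p under 0.05. It had 22, 295 and 74 counts in the KLRG1-negative and 1, 0 and 0 in the KLRG1-positive libraries. Dntt thus passed the filter through the KLRG1-negative group, and its direction is not read as a result.

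Of the co-receptors that mark the main alpha-beta T cell classes, Cd8a had reads in every library and Cd4 almost none. Cd8a measured 674, 314 and 193 CPM against 42.1, 3.47 and 7.50 CPM (-4.48, adjusted p = 0.108), with a DESeq2 adjusted p of 5.68e-05, while Cd4 reached at most 1.17 CPM in any library and was at 0 counts in 4 of 6. Rag1 and Rag2, the recombinase genes, had 0 counts in all 6 libraries, and Ptcra, the pre-T cell receptor alpha chain, had 4 counts in KLRG1-positive library 3 alone. The repair genes Prkdc and Dclre1c, which also serve recombination, gave -0.14 and -0.73 (adjusted p = 0.956 and 0.282). Among transcription factors, Tcf7 gave -1.08 and Bcl11b 0.14, neither near the threshold (adjusted p = 0.397 and 0.973). Gata3 measured 169, 530 and 365 CPM against 990, 1101 and 811 CPM, without overlap, 1.45, adjusted p = 0.156. Id2, which represses E proteins, measured 453, 954 and 784 CPM against 1636, 1594 and 1557 CPM, adjusted p = 0.117. Ets1, the most abundant of them, measured 2007, 1577 and 1753 CPM against 1006, 2106 and 1543 CPM, groups that overlapped. Of 16 transcription factors, 0 were called in either direction by edgeR (1.21% of all genes lower and 0.125% higher). DESeq2 called 1 lower and 2 higher (8.79% and 1.91% of all genes), and the 2 were Gata3 and Id2. An unadjusted p under 0.05 was reached by 3 in each direction (11.5% of all genes lower and 4.19% higher). Of the cytotoxic genes, Nkg7 gave -2.35, edgeR adjusted p = 0.13, and Gzmb -2.13, edgeR adjusted p = 0.282. DESeq2 called Nkg7 lower and did not call Gzmb.

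**Figure D5:**
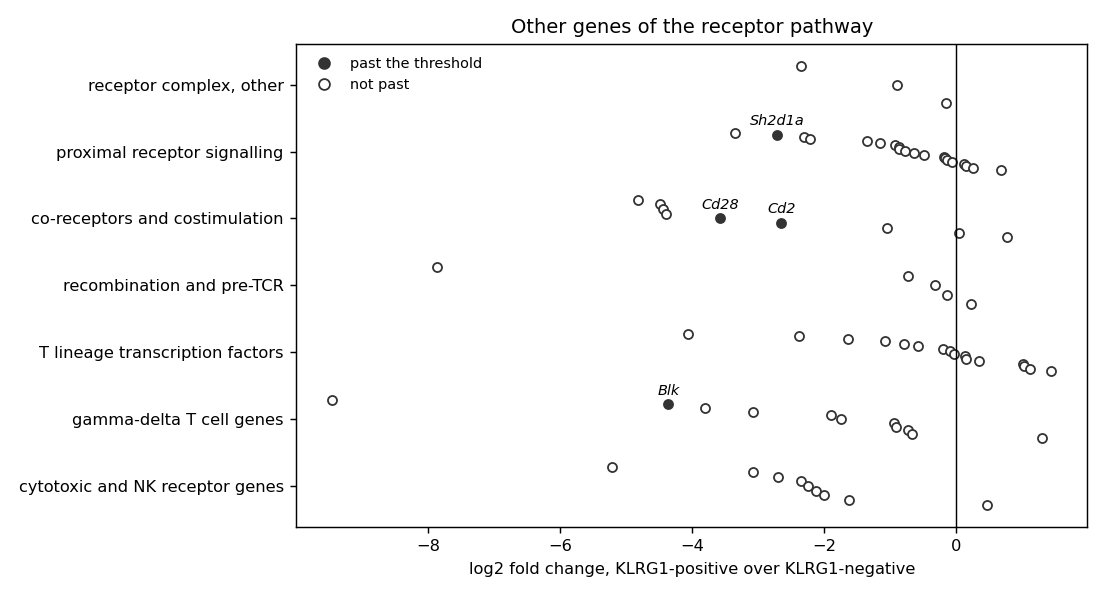
Log2 fold change of the 73 tested pathway genes by list, filled where past the adjusted threshold. The 4 filled points, Sh2d1a, Cd28, Cd2 and Blk, lie between -4.36 and -2.65, and most open points lie left of 0.

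The genes most like Cd3e over the 6 libraries, out of 9633 protein-coding genes outside the set of 10 whose higher group averaged 10 CPM or more, were Slamf7, Tbx21, Rtp4, Slamf1 and Tbc1d22b, with Pearson's r of 0.995, 0.994, 0.993, 0.993 and 0.993. Tbx21, a transcription factor of type 1 lymphocytes, measured 131, 74.6 and 52.6 CPM against 15.9, 6.68 and 6.75 CPM. Those most like Tcrg-C4 were Decr1, Xpnpep1, Prkag2, Taldo1 and Clic1, at 0.999, 0.995, 0.991, 0.990 and 0.989. Decr1, a mitochondrial enzyme of fatty acid oxidation, measured 24.7, 33.8 and 41.4 CPM against 72.1, 60.9 and 68.1 CPM. These r rest on 6 libraries in 2 groups and are given as a description only.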

How the data were processed

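Raw counts of reads per gene were made by the authors with featureCounts 1.5.2 on Ensembl release 90 models of mouse build GRCm38, unstranded and without ambiguous or multi-mapping reads, per the file headers. The submitters' processing notes also name STAR 2.4.1d, Subread 1.5.2 and bcl2fastq. Multi-mapping alignments were 26.3 to 32.3% and ambiguous ones 2.49 to 2.81% of each library, so near-identical receptor genes are understated. Libraries were made with a SMARTer low-input kit and Nextera XT, per the labels' protocols, which do not mark strand. Gene length is another column of the deposited table and was used only for levels per kb.

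From the counts, 15197 genes passing filterByExpr were tested with edgeR 4.0.16 (R 4.3.3): quasi-likelihood F test, robust, TMM, Benjamini-Hochberg, threshold 0.05. P-values are two-sided, and standard errors come from the F statistic. DESeq2 1.42.0 was an alternative, and the fit was tested on simulated data. Others were size factors, library size only, no filter, each library left out, near-identical genes summed, the replicate block, and, chosen after seeing the data, both libraries numbered 1 left out and coding transcript lengths. With 3 against 3 an exact permutation test cannot go below 0.1, so none was used. For replicate numbers 1, 2 and 3, the departures from the group mean in log2 CPM correlated between the groups at 0.456, 0.444 and 0.214, and each of the 6 libraries correlated best with its own number. The numbers may thus pair the samples, but the labels state no pairs and these correlations are the only ground for them. Values without another name come from the fit without the pairs, which called 19 genes higher and 184 lower. Those of the paired fit, which called 0 and 53, are given as with the replicate block. The genes, the pathway and marker lists and the alternatives were chosen with earlier results of these data known. Named were all 10 genes and a fixed set of pathway genes. Added were up to 2 genes per list and direction past the threshold or the 2 most abundant. So were the 5 genes most like Cd3e and Tcrg-C4 and the leading variable segment per locus. Trbv15, Trbj1-1, Trbj2-1, Trbj2-3, Trbj2-5, Trdv1, Trdv2-2, Trdv5, Trgj4, Tcrg-V1, Dntt, Il23r, Lum and Themis were named after their values were seen. Median log2 fold change over all genes was -0.05 with TMM.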

Additional observations from a re-analysis of the deposited data

How the results depend on the processing

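The numbers called depended on the test. Over all genes, edgeR called 19 higher and 184 lower; without the filter 37 and 282, with DESeq2 350 and 1609, with both libraries numbered 1 left out 3 higher. The fit with the replicate block treats same-numbered libraries as pairs, which the labels do not state. In it, 0 genes were higher and 53 lower. Among the pathway genes and segments no calls changed there other than those named in the results. Of the 10 receptor and CD3 genes, 1 was called higher without the filter and with DESeq2, and 5 (DESeq2), 3 (block) or 2 (libraries numbered 1 left out) lower. Pathway genes called by DESeq2 numbered 3 higher and 20 lower, and segments 2 and 87; 2 segments were lower without the filter and 0 without the libraries numbered 1. With 1 library left out, calls over all genes ranged from 0 to 5 higher and 0 to 159 lower, pathway genes from 0 to 6 lower and segments from 0 to 1 lower, and 0 of the 10 genes were called. By plain counts in place of levels per kb, beta held 65.3% in KLRG1-negative, gamma 29.1% in KLRG1-positive, and delta 2.25% and 0.367%, respectively. Causes of these changes were not tested.

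Of 124 alternative values of the 10 genes' log2 fold changes, 118 moved by less than the spread between replicates and 6 by more. Of the uncalled pathway genes that were named, those that changed sign under an alternative were Tcrg-C3 (0.065 with the block, 1.504 without the libraries numbered 1, -1.11 to 1.29 with 1 library left out), Prkdc (0.051, 0.225, -0.51 to 0.50), Ets1 (0.147 without the libraries numbered 1, -0.465 to 0.051), Zap70 (-0.077 to 0.397) and Bcl11b (-0.39 to 1.11). Depth limits only the rows with few reads, such as Cd4, Ptcra and most alpha segments.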
